A study of Mus musculus with 80 samples.

Results

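The genes of major histocompatibility complex (MHC) class I and class II presentation were followed through each step by which mouse brain microglia are purified. A list of 10 genes was set by symbol: H2-Aa, H2-Ab1, H2-Eb1, Cd74 and H2-DMa of the class II pathway and H2-K1, H2-D1, B2m, Tap1 and Tap2 of the class I pathway. Of these, 9 had a row among the 15919 genes of the sort comparison and among the 16000 genes of the cell preparation comparison, and H2-DMa was not analysed here. All 9 genes passed the filter on low counts in every comparison described. In mm10, the class II genes H2-Ab1 (chr17:34263227-34269418), H2-Aa (chr17:34282751-34287771) and H2-Eb1 (chr17:34305867-34316674) and the transporter genes Tap1 (chr17:34187556-34197225) and Tap2 (chr17:34204479-34216321) lie near each other in the MHC of chromosome 17, H2-K1 (chr17:33996012-34000333) and H2-D1 (chr17:35263094-35267497) lie on either side of them, and B2m lies on chromosome 2 (chr2:122147687-122153082).

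MHC class I molecules display peptides from inside the cell on the surface of most nucleated cells. H2-K1 and H2-D1 are their heavy chains, B2m is the light chain shared by all of them, and Tap1 and Tap2 together form the transporter that moves peptides into the endoplasmic reticulum. MHC class II molecules display peptides from engulfed material to CD4+ T cells. H2-Aa pairs with H2-Ab1 to form the I-A molecule, H2-Eb1 is the beta chain of I-E, and Cd74 is the invariant chain that occupies the peptide groove during transport. In the brain, resting microglia are known for low class II expression, whereas border macrophages and dendritic cells carry more of it, and both pathways are inducible by interferon-gamma.

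All mice were Cx3cr1-NuTRAP animals of both sexes (labelled Cx3cr1(Jung)-cre/Ert2+;NuTRAP+). Tamoxifen was injected intraperitoneally at 100 mg/kg body weight daily at about 3 months of age, and the resulting Cre activity tags ribosomes with eGFP in cells with an active Cx3cr1 promoter. That promoter is used by microglia and also by border macrophages and some monocytes, so the tag is not exclusive to microglia. Translating ribosome affinity purification (TRAP) pulls tagged ribosomes down with an antibody to GFP and recovers the RNA bound to them, and Input is the RNA of the same sample before the pulldown. Each sample gave an Input and a TRAP library. Samples were single brain hemispheres, except that a whole brain was used for Dounce.

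In the sort comparison, 48 libraries from 14 mice covered 6 preparations: whole tissue homogenate (Tissue), an enzymatic suspension digested warm (Cell), CD11b magnetic beads (autoMACS), beads followed by cartridge sorting (autoMACS to Tyto), cartridge sorting alone (Tyto) and cytometer sorting (FACSAria). The last 3 were gated on CD11b+CD45+eGFP+ cells, whereas autoMACS carried no eGFP gate. In the cell preparation comparison, 32 libraries from 12 mice covered 4 preparations: a second set of tissue libraries (Tissue2), the enzymatic suspension without or with inhibitors of transcription and translation, written Cell (-) Inhib and Cell (+) Inhib, and a cold mechanical suspension cleared on Percoll (Dounce). The inhibitors were actinomycin D, triptolide and anisomycin. Groups held 4 mice, except Tyto with 5 and autoMACS to Tyto with 3. Tissue, Cell and Tissue2 came from the same 4 mice, and all sorted groups came from other mice. Cell (-) and Cell (+) Inhib shared a further set of mice, and Dounce came from mice of its own. Differences of the sorts from Tissue or Cell are therefore also differences between mice. The same holds for differences of Dounce from Tissue2, and of either enzymatic group from Tissue2 or Dounce.

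Expected counts per library summed to between 7129464 and 20168116 in the sort comparison and to between 2471448 and 14650287 in the cell preparation comparison. The Dounce-TRAP libraries were the shallowest, with 2471448 to 4724538. The authors reported lower RNA integrity in Dounce-Input than in the tissue and enzymatic Inputs of the cell preparation comparison. They also reported coverage more skewed toward the end of transcripts in its tissue and Dounce libraries than in its enzymatic ones. Levels are given as CPM, counts scaled to a common library size after TMM normalization. The summed level of 10 microglial markers was 240.9 to 371.6 CPM in Tissue-Input, 4405 to 5790 in Cell-Input and 22140 to 41690 in the sorted Inputs. It was 5011 to 6342 in Tissue-TRAP, 33450 to 36640 in Cell-TRAP and 40840 to 49810 in the sorted TRAP libraries, so the labelled cell type was present in every purified library. Every level below is therefore read beside the microglial share of its library, and in these bulk samples fewer cells of a type and less RNA per cell cannot be told apart.

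The promoters of these genes were read for elements known to regulate MHC genes. RefSeq start sites on GRCm38.p6 gave promoters for 7 of the 10 listed genes, each from 250 bases before to 50 after the start. In the windows of 30 bases that follow, written 5′ to 3′ on the strand of the gene, capitals mark the Y box (CTGATTGG) in H2-Aa and H2-Eb1. In H2-K1 and H2-D1 they mark an NF-kB type element (GGGGATTCCCC) and an interferon-response type element (TTTCNNTTC).
H2-Aa, chr17:34287856-34287885, minus strand: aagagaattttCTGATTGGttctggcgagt
H2-Eb1, chr17:34305794-34305823, plus strand: ctcctttgatgCTGATTGGctcccagcact
H2-K1, chr17:34000429-34000458, minus strand: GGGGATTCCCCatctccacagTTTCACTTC
H2-D1, chr17:35262923-35262952, plus strand: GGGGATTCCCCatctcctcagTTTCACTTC

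The first base of the Y box lay at -51 in H2-Aa and at -62 in H2-Eb1, counted from the RefSeq start site of each. For H2-Aa that site is not the boundary of the gene coordinates given above. The H2-K1 and H2-D1 windows differed at 1 of 30 positions, A18T, counted from the 5′ end of the H2-K1 window. On either strand, GGGGATTCCCC stood in 10 of 32851 RefSeq promoters (0.0304%), and TTTCNNTTC in 7.52%. Both elements were found in H2-K1 and H2-D1 and in none of the other 5 promoters read. CTGATTGG stood in 4.10% of all promoters and in 5 of the 7 read here (H2-Aa, H2-Eb1, H2-K1, H2-D1 and Tap1), and its core GATTGG in 16.1% of all and in 7 of 7. The core lies within the longer element, so the 2 counts are not separate. These matches describe letters in a window and are not shown to be sites in use.

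The enzymatic suspension was compared with the homogenate of the same mice, to see how the genes stand once cells are freed from tissue. All 9 genes were higher in Cell-Input, by 3.36 to 3.91 on the log2 scale for class II and by 2.02 to 3.14 for class I. H2-Aa measured 2.78, 3.55, 2.97 and 2.70 CPM in the 4 Tissue-Input libraries and 64.3, 30.2, 37.2 and 33.7 in the 4 Cell-Input libraries. The groups did not overlap, and the Cell library of replicate 1 was the highest. H2-Aa rose by 3.88 ± 0.36 on the log2 scale (SE, n = 4 per group, edgeR adjusted p = 1.66e-09). Cd74 went from between 7.51 and 10.0 CPM to between 95.9 and 187.4, a rise of 3.91 ± 0.31 (edgeR adjusted p = 8.94e-11). H2-Ab1 rose by 3.81 ± 0.35 and H2-Eb1 by 3.36 ± 0.34. The 4 class II genes rested on few counts in Tissue-Input, 57 to 76 per library for H2-Aa and 43 to 107 for H2-Ab1.

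Among the class I genes, B2m measured 41.1, 52.5, 38.6 and 39.6 CPM in Tissue-Input and 315.0, 343.1, 335.5 and 368.7 in Cell-Input. Its replicates lay close together on both sides, and it rose by 3.08 ± 0.14 (edgeR adjusted p = 4.75e-15). H2-K1 rose by 3.14 ± 0.13, from between 21.8 and 30.4 CPM to between 193.6 and 249.6. H2-D1, at 68.8 to 81.1 CPM in tissue, rose by 2.13 ± 0.12. The transporter genes rose by 2.72 ± 0.13 (Tap1) and 2.02 ± 0.11 (Tap2). The 9 genes had a median difference of 3.14 on the log2 scale against 0.17 over the 15750 genes tested, of which 46% were called and 28.5% were called higher. None of the 9 overlapped between the groups, and neither did 75.4% of the genes tested. A call required a Benjamini-Hochberg false discovery rate (FDR) under 0.1 and a change of more than 2-fold. H2-K1 and H2-D1 are close relatives of each other and of the H2-Q genes, so reads shared among them may have been split between the genes and their separate values are uncertain.

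**Figure D1:**
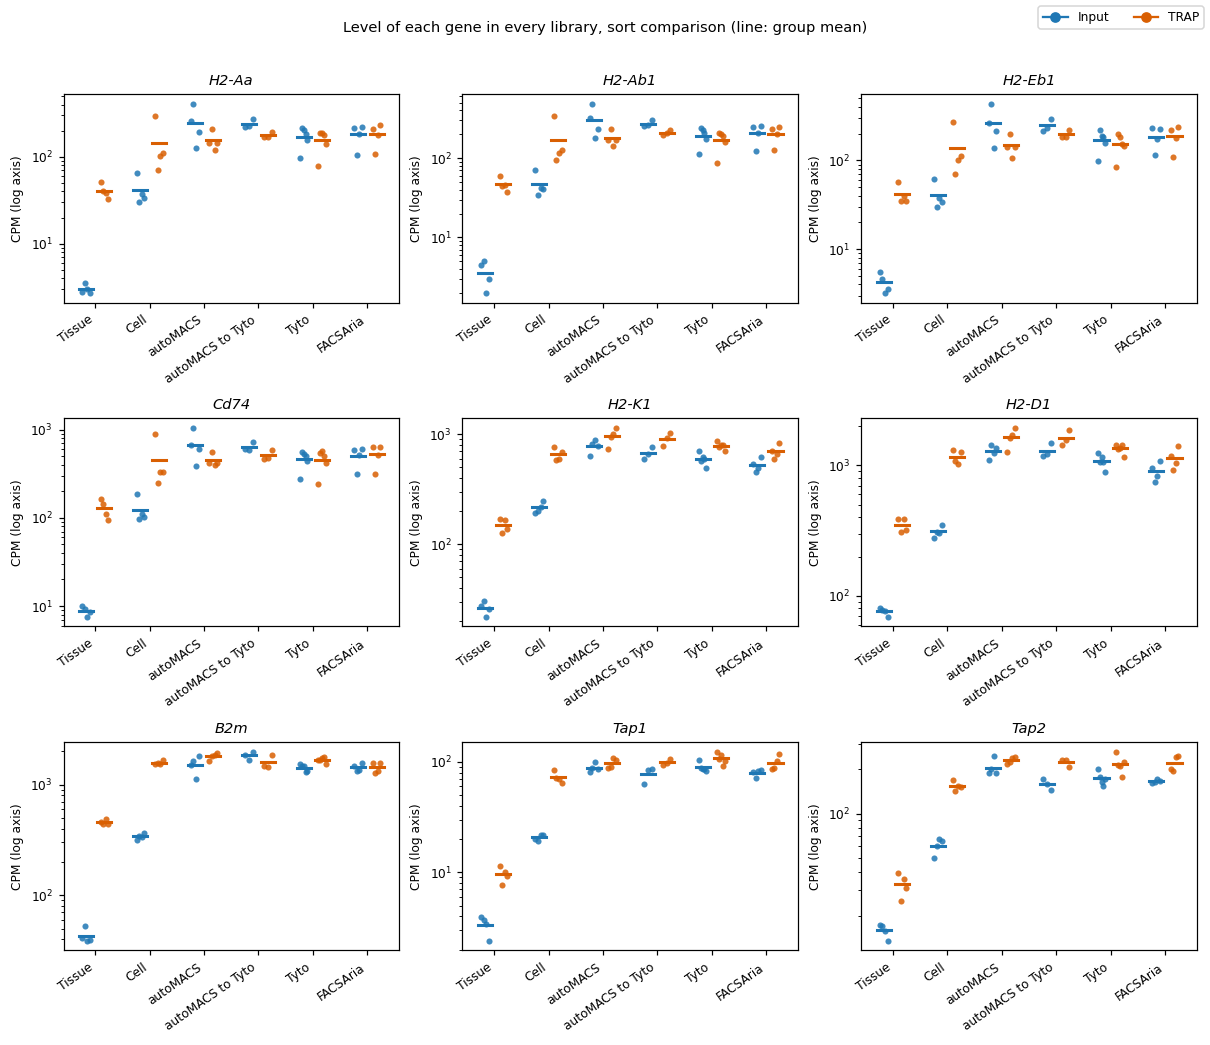
Level of each of the 9 genes in the sort comparison, in CPM (TMM normalized) on a log10 axis, by preparation, with Input and TRAP shown apart. Each point is 1 library and each bar the group mean. For H2-Aa, the 4 Tissue-Input libraries sit between 2.70 and 3.55 and every sorted Input library lies at 97.1 or above.

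All 9 genes were higher again in the sorted Inputs than in the unsorted suspension, which came from other mice. H2-Aa measured 261.8, 408.0, 127.7 and 195.3 CPM in autoMACS-Input and 218.4, 229.2 and 270.3 in the Input of beads followed by Tyto. It measured 97.1, 213.7, 202.4, 184.6 and 156.8 CPM in Tyto-Input and 215.5, 105.0, 184.8 and 220.6 in FACSAria-Input. Every sorted library exceeded every Cell-Input library, and libraries within a sort spread widely. The mean of the 4 sorts exceeded Cell-Input by 2.10 ± 0.27 for H2-Aa, 2.12 for H2-Ab1, 2.16 for H2-Eb1 and 1.95 ± 0.24 for Cd74. B2m, at 1124 to 1982 CPM over the sorted Inputs, was higher by 1.95 ± 0.12 (edgeR adjusted p = 2.01e-13). H2-K1 was higher by 1.32 ± 0.11, H2-D1 by 1.63, Tap1 by 1.78 and Tap2 by 1.30 ± 0.09. In each of the 4 sorts taken alone, all 9 genes were called higher than in Cell-Input, where 51.6% (autoMACS), 50.6% (autoMACS to Tyto), 51.8% (Tyto) and 51.1% (FACSAria) of the genes tested were called. None of the 9 overlapped Cell-Input in any sort, and of all genes tested 70.9% to 78.3% did not overlap it. For the mean of the sorts 51.8% were called and 17.1% were called higher.

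The marker sums moved with these rises. The sum of 8 border macrophage markers went from 19.9 to 30.7 CPM in Tissue-Input to 360.5 to 551.7 in Cell-Input, and that of 8 endothelial markers from 49.5 to 63.5 to 866.4 to 1629. Over the 4 sorts, all 10 microglial and all 8 border macrophage markers were higher than in Cell-Input, with median differences of 2.67 and 2.10 on the log2 scale, while all 8 endothelial markers were lower, with a median of -5.18. The part of these cell types in the changes of the 9 genes was not tested.

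Per 1000 CPM of summed microglial markers, the order was different. B2m stood at 155.4 ± 12.6 (SD, n = 4) in Tissue-Input, 64.9 in Cell-Input and 35.3 to 46.3 in the means of the sorted Inputs. Tap2 stood at 58.9 in Tissue-Input and 11.5 in Cell-Input. For the class II genes the step was smaller than for these 2 genes. H2-Aa stood at 10.9 in Tissue-Input and 8.18 in Cell-Input, H2-Ab1 at 12.9 and 9.33, H2-Eb1 at 15.6 and 8.04, and Cd74 at 32.5 and 24.5. These scaled levels are a description, and no test was made on them.

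Between the sorting methods, no gene of the 9 was called. Tyto-Input against FACSAria-Input gave a median difference of -0.03 over the 9 genes, autoMACS to Tyto-Input against autoMACS-Input gave -0.05, and the mean of the 3 gated sorts against autoMACS-Input gave -0.33, in comparisons where 0.476%, 1.96% and 5.24% of genes were called by edgeR and 1306, 3172 and 4798 genes of 15750 passed an unadjusted p of 0.05. The largest departures were in the last of these. H2-K1 differed by -0.35 ± 0.10 (edgeR adjusted p = 0.0211) and Tap2 by -0.27 ± 0.08 (edgeR adjusted p = 0.0329), both under the 2-fold limit, and the class II genes by -0.33 to -0.43. DESeq2 called none of the 9 in these comparisons either.

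In 3 mice, cells of the same animal went to Tyto and to FACSAria, and the class II values of the 2 samples could lie far apart. The mouse with 97.1 CPM of H2-Aa in Tyto-Input gave 220.6 in FACSAria-Input, the highest of its group. Another mouse gave 213.7 and 105.0, and the third gave 156.8 and 184.8. B2m in the same 3 mice was 1530 and 1560, 1477 and 1322, and 1317 and 1365 CPM, closer in ratio than the H2-Aa values of each mouse.

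Ribosome-bound RNA was compared with Input within each preparation, to see which of the genes the tagged cells hold. From tissue, all 9 genes were higher in TRAP. With 0.5 CPM added to both levels, H2-Aa in TRAP was 15.7, 10.1, 11.4 and 10.3 times its Input level in the 4 mice, and B2m 11.1, 8.27, 12.6 and 11.1 times. On the log2 scale H2-Aa rose by 3.76 ± 0.40, Cd74 by 3.86 ± 0.35 and B2m by 3.42 ± 0.11 (edgeR adjusted p = 1.30e-27). H2-K1 rose by 2.51 ± 0.14 and H2-D1 by 2.21. The transporter genes moved least, Tap1 by 1.52 ± 0.14 and Tap2 by 1.04 ± 0.12. Of the 15825 genes tested, 11.1% were called and 9.23% were called higher. For Tap2 the call rested on the fit, since with the mouse as a block the difference was 0.99, just under the limit.

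The second set of tissue libraries of these mice gave values of the same order. H2-Aa measured 4.86, 4.71, 3.14 and 2.52 CPM in Tissue2-Input and 70.7, 45.8, 52.8 and 43.9 in Tissue2-TRAP, a rise of 3.80 ± 0.25. B2m rose by 3.48 ± 0.13, Tap1 by 1.70 ± 0.18 and Tap2 by 1.11 ± 0.14. All 9 genes were called higher, where 10.5% of 15894 genes were called and 8.21% were called higher. These are further libraries of the same tissue, not further mice.

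In the suspension the pulldown added less. In the Cell libraries, TRAP exceeded Input by 1.78 to 1.85 for the class II genes, 1.60 for H2-K1, 1.91 for H2-D1, 2.22 ± 0.11 for B2m, 1.80 for Tap1 and 1.35 for Tap2. All 9 were called, where 47.6% of genes were called and 16.8% were called higher. The difference between the Cell and Tissue effects was itself called for 5 genes, H2-Aa at -1.95, H2-Ab1 at -1.85, H2-Eb1 at -1.51, Cd74 at -2.01 and B2m at -1.20, where 35.3% of genes were called and 29.5% were called lower and the median over all genes was -0.29. H2-K1, H2-D1, Tap1 and Tap2 did not pass.

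After sorting, TRAP and Input were close. In FACSAria, H2-Aa in TRAP was 0.966, 1.03, 0.967 and 1.07 times its Input level. In autoMACS it was 0.557, 0.509, 0.940 and 0.743 times, below 1 in all 4 mice. It was also below 1 in every sample of Tyto (0.810 to 0.964) and of autoMACS to Tyto (0.707 to 0.775). Over the mean of the 4 sorts, no gene was called by edgeR or by DESeq2. H2-Aa differed by -0.31 ± 0.16 (edgeR adjusted p = 0.0986), B2m by 0.07 and H2-K1 by 0.39 ± 0.07 (edgeR adjusted p = 4.65e-06), in a fit where 18.9% of genes were called, 0.0758% were called higher, 9895 passed an unadjusted p of 0.05 and the median of all genes was -0.19. The class II differences in autoMACS ran from -0.59 to -0.83. Their median was -0.72 there, -0.36 in autoMACS to Tyto, -0.145 in Tyto and 0.01 in FACSAria. The difference between the autoMACS and the gated effects was called for none of the 9 genes, where 0.335% of all genes were called. Against Cell, the mean effect of the sorts was lower for 8 genes, from -1.21 for H2-K1 to -2.18 for H2-Ab1, where 28.9% were called and 19.0% were called lower, and Tap2 was not called.

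**Figure D2:**
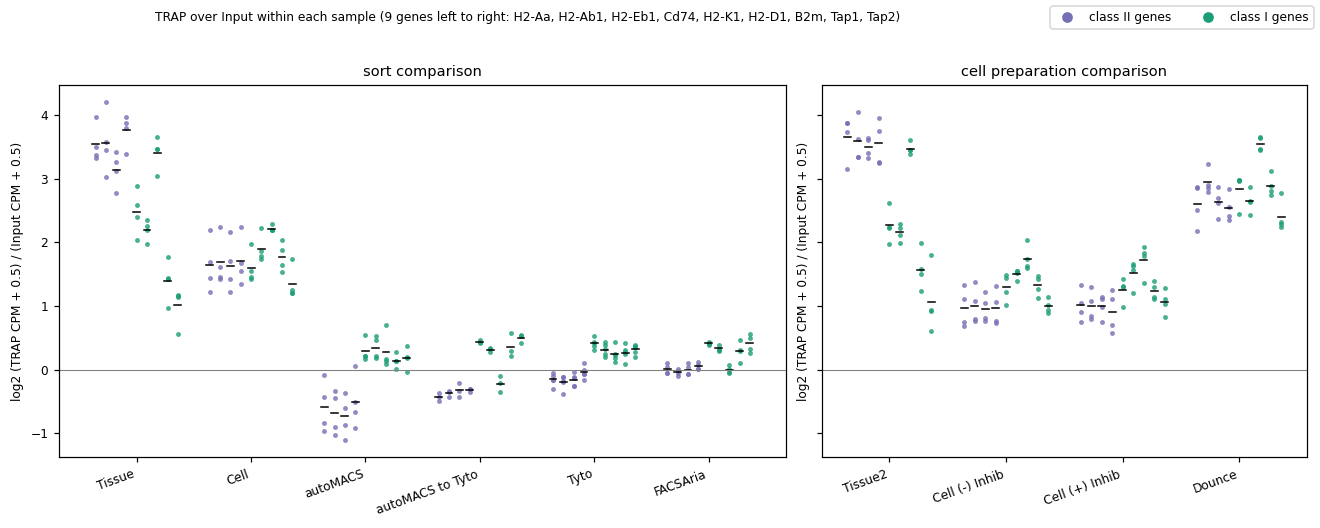
TRAP level over Input level of the same sample for each of the 9 genes, as a log2 ratio with 0.5 CPM added to both levels, by preparation, with 1 point per sample, a short bar for the mean and the line at 0 marking equal levels. Tissue and Tissue2 samples sit highest for the class II genes, and the sorted samples lie nearer the line. The class II genes of autoMACS to Tyto lie below it, as do those of autoMACS except Cd74 in replicate 3 (0.057).

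The TRAP libraries were then compared with each other, to see how the levels of the 9 genes in them stand after each preparation. Cell-TRAP exceeded Tissue-TRAP in all 9 genes. Tap1 measured 11.5, 7.66, 10.2 and 9.35 CPM in Tissue-TRAP and 84.4, 71.3, 69.7 and 64.4 in Cell-TRAP, and rose by 2.92 ± 0.13 (edgeR adjusted p = 2.02e-16), the largest rise of the 9. Tap2 rose by 2.24 ± 0.12 and H2-K1 by 2.15 ± 0.13, the latter from between 126.2 and 169.1 CPM to between 588.9 and 759.8. B2m measured 460.4, 438.2, 492.6 and 442.8 CPM in Tissue-TRAP and 1547, 1574, 1531 and 1683 in Cell-TRAP, and rose by 1.80 ± 0.08. H2-D1 rose by 1.75. Of the 14953 genes tested, 54.3% were called and 25.1% were called higher. None of the 9 genes overlapped between the groups, and neither did 77.2% of all genes tested.

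For the class II genes, 1 library set much of the size. H2-Aa measured 51, 40.3, 38.8 and 32.5 CPM in Tissue-TRAP and 297.2, 71.3, 102.0 and 109.7 in Cell-TRAP, and Cd74 measured 892.7, 245.4, 327.4 and 328.2 in Cell-TRAP. Replicate 1 of Cell stood far above the others in H2-Aa, H2-Ab1 and Cd74. Over all 4 mice H2-Aa rose by 1.85 ± 0.34, H2-Ab1 by 1.87, H2-Eb1 by 1.77 and Cd74 by 1.82 ± 0.31. Without that library the rises were 1.20, 1.25, 1.17 and 1.20, still called, and those of the class I genes ran from 1.66 to 2.80. The same library had the highest border macrophage sum, 4615 CPM against 2333 to 2513 in the other Cell-TRAP libraries, while its microglial sum, 33450, was the lowest of a range that reached 36640. The part of those cells in its class II level was not tested. The mouse of that library also had the highest H2-Aa level of its group in Tissue-TRAP and in Tissue2-TRAP.

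The sorted TRAP libraries did not differ from Cell-TRAP past both limits in any of the 9 genes. The differences of their mean were 0.18 for H2-Aa, 0.08 for Cd74, 0.01 for B2m, 0.32 for H2-K1 (edgeR adjusted p = 0.0103), 0.25 for H2-D1 (edgeR adjusted p = 0.0421), 0.45 for Tap1 (edgeR adjusted p = 0.000223) and 0.51 for Tap2 (edgeR adjusted p = 3.61e-05), where 24.4% of genes were called and 8735 passed an unadjusted p of 0.05. The last 4 genes thus passed the FDR alone, by less than 2-fold. Without Cell-TRAP replicate 1 the class II differences were 0.81 for H2-Aa, 0.74 for H2-Ab1, 0.83 for H2-Eb1 and 0.68 for Cd74, still under 2-fold. Between the sorts, no gene was called in TRAP, where 0.0936% (Tyto against FACSAria), 2.37% (autoMACS to Tyto against autoMACS) and 2.70% (gated sorts against autoMACS) of genes were called. In the last of these B2m differed by -0.22 ± 0.06 (edgeR adjusted p = 0.0123).

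Levels of different genes were compared per kilobase of exon. In Tyto-Input, B2m led with 1655 ± 118 CPM per kilobase (SD, n = 5), then H2-D1 with 518.0 ± 62.4, H2-K1 with 359.8 ± 45.9, Cd74 with 326.3 ± 81.1, H2-Ab1 with 158.6 ± 41.3, H2-Aa with 151.5 ± 41.3, H2-Eb1 with 101.9 ± 27.1, Tap2 with 50.6 ± 5.27 and Tap1 with 30.3 ± 2.84. H2-K1 and Cd74, and H2-Ab1 and H2-Aa, were neighbours whose means lay closer than their spread. In Tissue-TRAP the order was B2m at 533.2, H2-D1 at 167.5, Cd74 at 90.8 ± 22, H2-K1 at 90.3 ± 12.7, H2-Ab1 at 38.5, H2-Aa at 36.1, H2-Eb1 at 24.9, Tap2 at 9.58 and Tap1 at 3.27, with the same pairs not apart. In Dounce-TRAP, Cd74 at 484.4 ± 86.8 stood above H2-K1 at 358.9 ± 56.7 and closer to H2-D1, at 495.4 ± 63.8, than their spread.

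The cell preparation comparison asked whether blocking transcription and translation, or working cold, changes what the suspension contains. Without inhibitors, the enzymatic suspension again exceeded tissue in all 9 genes. H2-Aa measured 75.8, 92.0, 95.8 and 85.4 CPM in Cell-Input (-) Inhib, above all Tissue2-Input libraries, a difference of 4.37 ± 0.21. Cd74 was higher by 4.20 ± 0.18, B2m by 3.33 ± 0.16, H2-K1 by 3.16 ± 0.20, Tap1 by 3.03, H2-D1 by 2.42 and Tap2 by 2.30, where 44.7% of 15753 genes were called and 25.6% were called higher. In TRAP the differences from Tissue2-TRAP were 1.77 ± 0.22 for H2-Aa, 1.77 ± 0.07 for B2m, 2.38 for H2-K1, 2.86 ± 0.16 for Tap1 and 2.38 for Tap2, and all 9 genes were called, where 53.2% were called and 22.3% were called higher. Per 1000 CPM of microglial markers, B2m stood at 96.9 in Tissue2-TRAP and 56.2 in Cell-TRAP (-) Inhib. H2-Aa stood at 7.52 and 4.33 and Tap1 at 1.89 (1.70 to 2.24) and 2.34 (1.92 to 2.77). Tap1 alone of the 9 had a higher mean in Cell-TRAP (-) Inhib, and its ranges overlapped.

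With inhibitors, no gene of the 9 changed past the limits. H2-Aa measured 81.1, 96.0, 72.3 and 66.9 CPM in Cell-Input (+) Inhib, in a range that overlapped the one without inhibitors, and B2m measured 644.3, 596.1, 667.9 and 983.3 against 674.8, 645.4, 594.1 and 803.8. The 9 differences ran from -0.15 to 0.20 in Input and from -0.20 to 0.11 in TRAP, and in neither fraction did any of the 9 separate the groups, where 2.23% of all genes did in Input and 12.5% in TRAP. The backgrounds were low: edgeR called 0.311% of genes in Input and 0.638% in TRAP, with 532 and 1313 genes at an unadjusted p of 0.05, and DESeq2 called none of the 9. Of the other pathway genes listed, only Cd83, a membrane protein that keeps class II molecules on the surface, was called. It measured 114.6, 106.1, 149.8 and 286.6 CPM in Input without inhibitors and 40.3, 39.6, 44.4 and 70 with them. It fell by 1.76 ± 0.26 in Input (edgeR adjusted p = 0.000725) and by 1.44 ± 0.24 in TRAP (edgeR adjusted p = 0.00235).

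**Figure D3:**
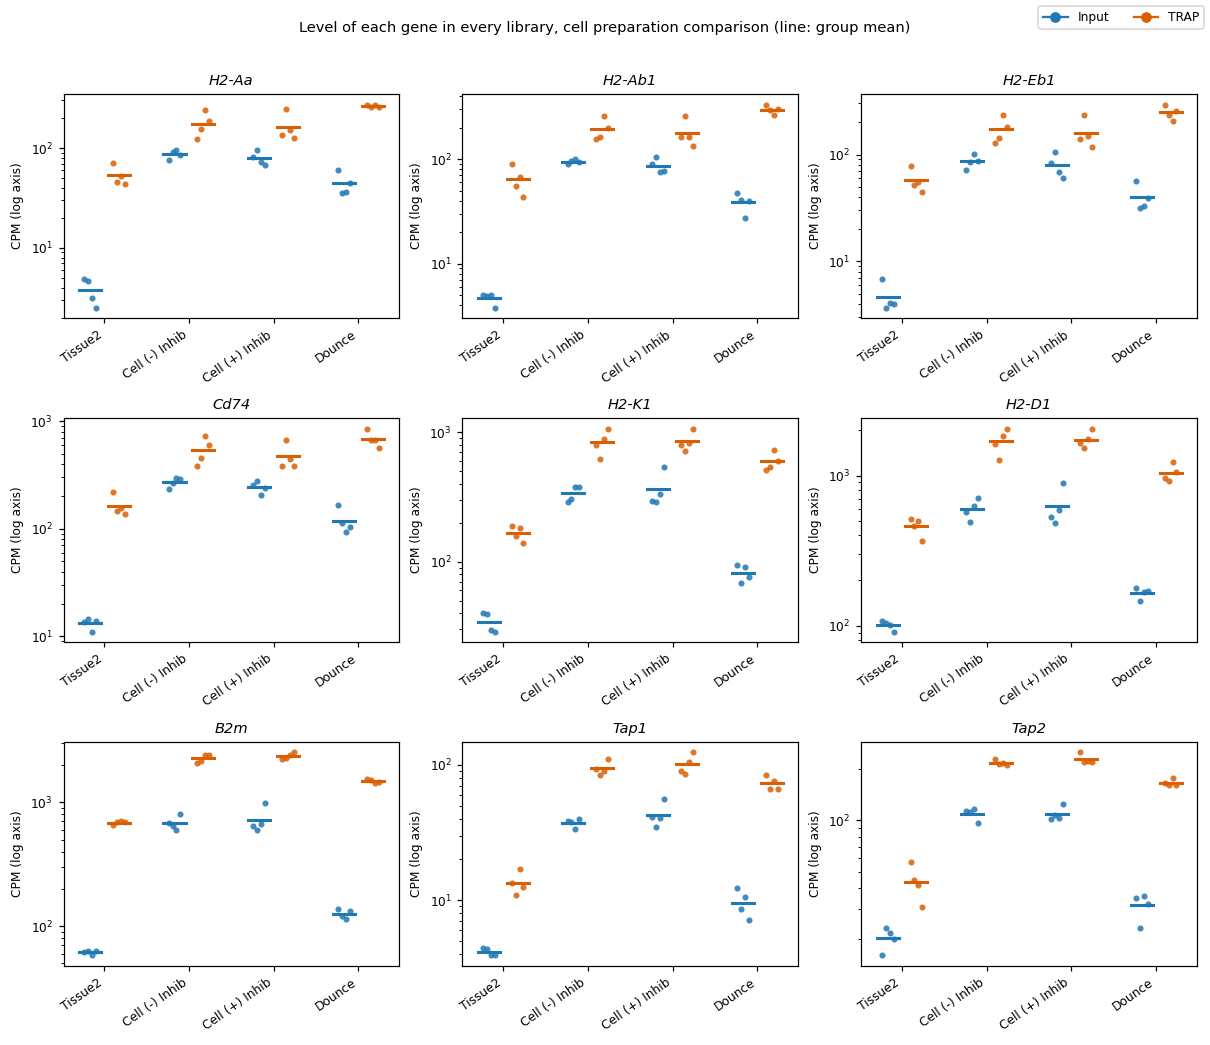
Level of each of the 9 genes in the cell preparation comparison, in CPM (TMM normalized) on a log10 axis, by preparation, with Input and TRAP shown apart. Each point is 1 library and each bar the group mean. The libraries with and without inhibitors overlap for every gene, and for B2m the Dounce-Input libraries (113.2 to 138.7) lie between Tissue2-Input (58 to 62.8) and the enzymatic suspensions.

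In the cold mechanical suspension, class II and class I separated. H2-Aa measured 60, 35.6, 36.4 and 44.9 CPM in Dounce-Input, H2-Ab1 47.6, 40.8, 27.3 and 39.8, and Cd74 166.9, 113.6, 92.3 and 104.1. Over Tissue2-Input, H2-Aa rose by 3.75 ± 0.21, Cd74 by 3.38 ± 0.17, H2-Eb1 by 3.29 and H2-Ab1 by 3.27. H2-K1, at 93.8, 67.8, 90.6 and 76.1 CPM, rose by 1.46 ± 0.19, Tap1 by 1.42 ± 0.19 and B2m by 1.25 ± 0.15. H2-D1 (0.92 ± 0.16, edgeR adjusted p = 4.86e-05) and Tap2 (0.85 ± 0.14, edgeR adjusted p = 1.89e-05) stayed under 2-fold. Thus 7 of 9 genes were called higher, where 50.1% of genes were called and 28.7% were called higher. None of the 9 overlapped Tissue2-Input, and neither did 70.3% of all genes tested. The part of the lower RNA integrity of Dounce-Input in these values was not tested.

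Against the enzymatic suspension without inhibitors, Dounce-Input was lower for the class I genes. B2m measured 138.7, 119.9, 113.2 and 132.6 CPM in Dounce-Input and differed by -2.08 ± 0.15, H2-K1 by -1.70, Tap1 by -1.60, H2-D1 by -1.50 and Tap2 by -1.46, all 5 called lower. The class II genes differed by -0.62 to -0.93 and were not called (H2-Ab1 -0.93 ± 0.14, edgeR adjusted p = 6.17e-06). Of all genes 56.8% were called and 28.1% were called lower. All 9 genes lay below the enzymatic libraries without overlap, as did 45% of all genes tested.

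Several marker lists moved beside this. The microglial sum was 1591 to 2481 CPM in Dounce-Input and 5786 to 9848 in Cell-Input (-) Inhib, and the border macrophage sum 68.6 to 159.9 and 356.2 to 703.2. The endothelial sum was 29.6 to 33 and 1461 to 1895. In the other direction, the sum of 8 dendritic cell markers was 91.8 to 130.0 in Dounce-Input against 38.6 to 42.8, that of 4 neutrophil markers 172.8 to 1162 against 16.1 to 81.3, and those of monocyte (4 of 5 measured), B cell (4 of 5) and T and NK cell markers (5 of 5) 22.2 to 42.5, 27.1 to 42.2 and 21.1 to 34.4 against 12.9 to 20.6, 14.4 to 20.5 and 6.43 to 11.9. The part of these cells in the class II or class I levels was not tested. Per 1000 CPM of microglial markers, H2-Aa stood at 21.3 in Dounce-Input (17.7 to 26.3) and 11.4 in Cell-Input (-) Inhib. In the same order, Cd74 stood at 57.4 and 35.4. The class I genes lay closer, H2-K1 at 40.6 and 44.7, H2-D1 at 81.2 and 78.5, Tap1 at 4.77 and 4.82 and Tap2 at 15.6 and 14.5. B2m was lower in Dounce-Input, at 61.3 and 87.5. These scaled levels carry no test.

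In TRAP, Dounce and the enzymatic suspension were nearer. The microglial sums were 33530 to 41080 CPM in Dounce-TRAP and 37710 to 43760 in Cell-TRAP (-) Inhib, and the neutrophil sum was 2.16 to 26 in Dounce-TRAP. H2-Aa measured 272.5, 259.2, 269.7 and 257.5 CPM in Dounce-TRAP and 122.3, 154.1, 241.4 and 184.9 in Cell-TRAP (-) Inhib, without overlap. B2m measured 1541, 1503, 1430 and 1461 against 2078, 2152, 2428 and 2429, also without overlap and in the opposite direction. No gene of the 9 passed both limits, where 28.7% of all genes were called. H2-Aa differed by 0.60 (edgeR adjusted p = 0.0219), H2-Ab1 by 0.63, H2-Eb1 by 0.54, Cd74 by 0.35 (edgeR adjusted p = 0.169), H2-K1 by -0.49, H2-D1 by -0.70 (edgeR adjusted p = 0.000442), B2m by -0.60 ± 0.07 (edgeR adjusted p = 1.57e-06), Tap1 by -0.36 and Tap2 by -0.38. The 4 class II values were above 0 and the 5 class I values below 0. Of the 9 genes 5 did not overlap, and of all genes tested 41.8% did not.

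Against Tissue2-TRAP, all 9 genes were higher in Dounce-TRAP. H2-Aa rose by 2.37 ± 0.22, H2-Ab1 by 2.28, H2-Eb1 by 2.16, Cd74 by 2.12, Tap1 by 2.50 ± 0.16, Tap2 by 2.00, H2-K1 by 1.89, H2-D1 by 1.25 and B2m by 1.17 ± 0.07, where 50.3% of 14723 genes were called and 23.2% were called higher. The comparison of Cell (-) Inhib with Tissue2 uses the same tissue libraries, so the 2 sets of values are not independent. Per 1000 CPM of microglial markers, B2m stood at 96.9 in Tissue2-TRAP and 38.9 in Dounce-TRAP. H2-Aa stood at 7.52 and 6.95 and Tap1 at 1.887 (1.70 to 2.24) and 1.925 (1.61 to 2.27). Tap1 alone of the 9 did not have a lower mean in Dounce-TRAP, and its 2 ranges overlapped almost fully.

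**Figure D4:**
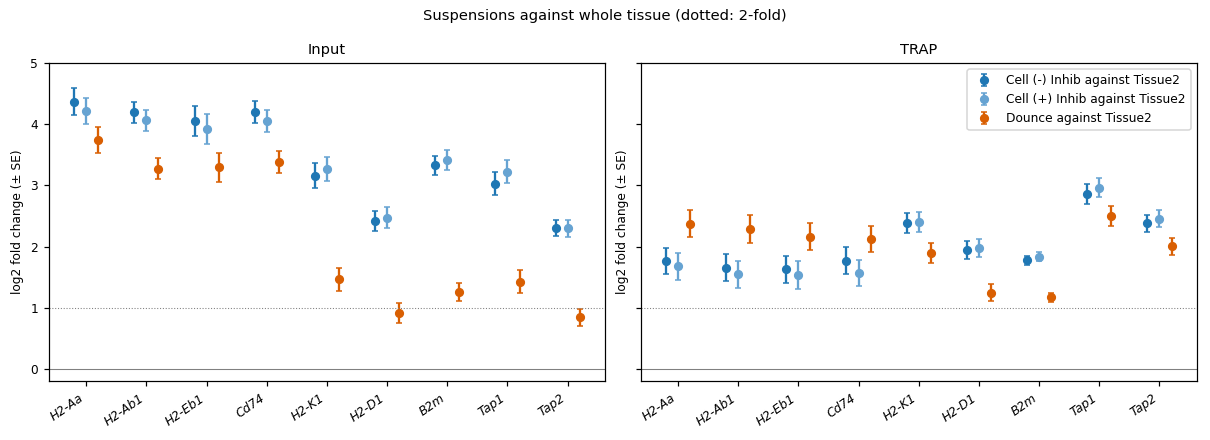
Difference from Tissue2 on the log2 scale for each of the 9 genes in the enzymatic suspension without inhibitors, with inhibitors and in Dounce, for Input and TRAP. Points are edgeR estimates and bars their standard errors. In Input, the Dounce points of the class I genes (0.85 to 1.46) lie below those of the class II genes (3.27 to 3.75).

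Within the cell preparations, the pulldown raised all 9 genes in Dounce, from 2.41 for Tap2 to 3.56 for B2m, where 47.5% of genes were called and 20.8% were called higher. In Cell (-) Inhib, 7 of 9 were called, with H2-Aa at 1.01 ± 0.20 and B2m at 1.74 ± 0.12, where 47.3% were called and 10.6% were called higher. H2-Eb1 and Tap2 were both at 0.99, and with the mouse as a block they were at 1.30 and 1.34 and were called. In Cell (+) Inhib, 8 of 9 were called, where 45.6% were called and 9.71% were called higher. Cd74 was at 0.94 there, and at 1.21 and called with the block. The median of all genes was -0.42 and -0.40 in these fits, and 0.02 and -0.01 when only the groups compared were normalized together, so values near the 2-fold limit depend on that choice. The TRAP effect was larger in Dounce than in Cell (-) Inhib for all 9 genes, by 1.15 for H2-D1 to 1.90 for H2-Ab1, where 38.5% of genes were called, 32.2% were called higher and the median was 0.63. It did not differ past the limits between Cell (+) and Cell (-) Inhib for any of them, where 0.145% were called.

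The balance of the classes was described by the sum of the 4 class II levels over the sum of H2-K1, H2-D1 and B2m, in CPM. This ratio was 0.115 to 0.152 in Tissue-Input and 0.124 to 0.145 in Tissue2-Input, and 0.223 to 0.326 and 0.224 to 0.339 in the TRAP libraries of the same tissue. It was 0.218 to 0.488 in Cell-Input, 0.295 to 0.374 in Cell-Input (-) Inhib and 0.182 to 0.429 in Cell-Input (+) Inhib. Dounce stood highest, at 0.509 to 0.804 in Input and 0.414 to 0.580 in TRAP, above all libraries of Tissue2 and of both enzymatic groups in the same fraction. Among the sorts, autoMACS-Input ran from 0.255 to 0.612, Tyto-Input from 0.168 to 0.398 and FACSAria-Input from 0.261 to 0.433. In every preparation other than Tissue and Tissue2, the mean ratio was lower in TRAP than in Input. For Cell it was 0.298 in Input and 0.260 in TRAP, for Cell (-) Inhib 0.336 and 0.224, and for autoMACS 0.412 and 0.214. The ratio was formed after the values were seen and carries no test.

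**Figure D5:**
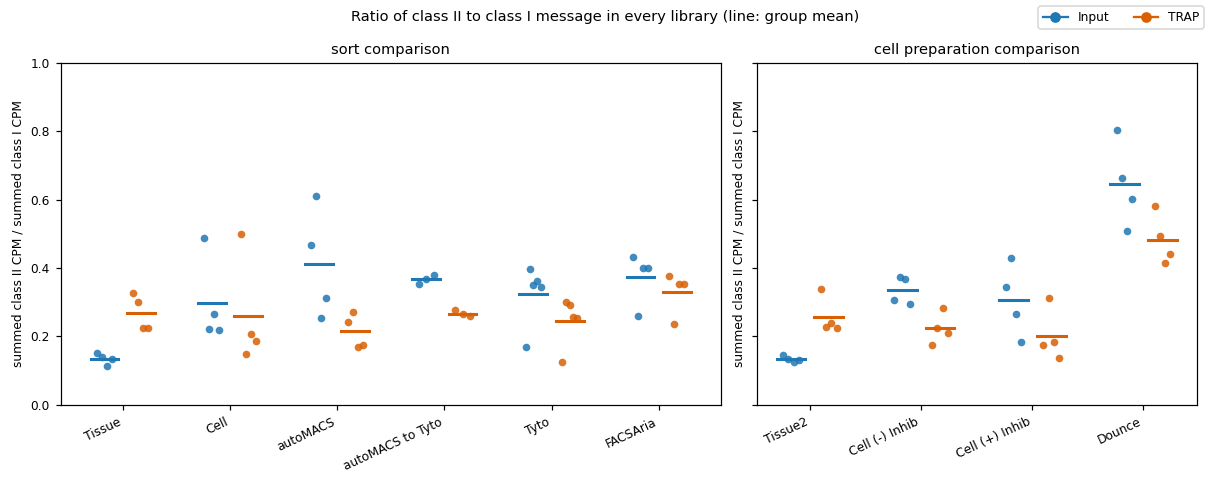
Summed level of the 4 class II genes over the summed level of H2-K1, H2-D1 and B2m, both in CPM, in each library, by preparation, with Input and TRAP shown apart, 1 point per library and a bar for the group mean. Tissue-Input libraries (0.115 to 0.152) sit lowest among the Inputs of the sort comparison. Among the Inputs of the cell preparation comparison, Tissue2-Input libraries (0.124 to 0.145) sit lowest and Dounce-Input libraries (0.509 to 0.804) highest.

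The genes also differed in how they varied among libraries of a group. After each gene was centered on its group mean over the 48 sort libraries, the 4 class II genes each correlated with their own average at r = 0.983 to 0.988, and in the 32 libraries of the cell preparation comparison at 0.917 to 0.946. H2-K1, H2-D1 and B2m correlated with the class II average at 0.213, 0.312 and 0.309 in the sort libraries and at 0.0782, 0.0532 and -0.000887 in the others. With the class I average they correlated at 0.920, 0.966 and 0.768, and at 0.954, 0.972 and 0.765. Tap1 correlated with the class I average at 0.552 and 0.678 and Tap2 at 0.311 and 0.288. Libraries of a mouse share that mouse and each gene is part of the average it is set against, so these values are descriptions.

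The genes most like the class II average in the sort libraries were Plbd1 (r = 0.837), Tlr8 (0.813), Ms4a7 (0.763), Cd36, Tgfbi, Mrc1 (0.762), C4b and Aoah (0.760). Mrc1 is a mannose receptor and a marker of border macrophages, as is Ms4a7. In the cell preparation libraries Plbd1 correlated at 0.566 and Aoah at 0.0240, and none of the 8 was among the 8 chosen there by the same rule. For the class I average they were Oas1a (0.813), Irf7 (0.791), Axl, Ifitm3, Ifi44, Fam20c, H2-Q7 and Zbp1 (0.744). Oas1a, Irf7, Ifitm3, Ifi44 and Zbp1 are known interferon-stimulated genes. Oas1a and Irf7 correlated at 0.743 and 0.708 in the cell preparation libraries, Zbp1 at 0.780 and Fam20c at 0.00732, and 1 of the 8, Zbp1, was chosen in both.

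Other genes of the pathways were read from 3 lists, 19 of class I processing, 10 of class II processing and 16 regulators. In Cell-Input against Tissue-Input, 11 of 18 tested class I genes, 9 of 9 class II genes and 8 of 15 regulators were higher and none was lower, with median differences of 1.65, 2.91 and 1.34 on the log2 scale against 0.17 over all genes, of which 28.5% were called higher. The largest were the class I relative H2-Q6 (4.15 ± 0.49) and H2-Q7 (3.71), the immunoproteasome subunit Psmb9 (3.30), the peptide-loading modulators H2-Ob (4.33) and H2-Oa (4.03), the protease Ctss (4.01), the transcription factor Irf8 (4.46), the class I transactivator Nlrc5 (3.98) and the interferon-gamma receptor chain Ifngr1 (3.49). In Cell-TRAP against Tissue-TRAP, 14 of 18, 9 of 9 and 10 of 15 were higher, where 25.1% of all genes were, led among the regulators by Nlrc5 (3.47 ± 0.41), and among the class I genes by the peptide-trimming enzyme Erap1 (3.17). In the mean of the sorts against Cell-Input, 13 of 18, 9 of 9 and 10 of 15 were higher, where 17.1% of all genes were. In Tissue-TRAP against Tissue-Input, 11 of 18, 8 of 9 and 5 of 15 were higher, where 9.23% of all genes were.

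In Dounce-Input against Tissue2-Input, 8 of 18 class I genes were higher and 2 lower, 8 of 10 class II genes were higher and 5 of 15 regulators were higher, where 28.7% of all genes were called higher, a share near that of the regulators. Against Cell-Input (-) Inhib, 1 class I gene was higher and 10 lower, 1 class II gene higher and 7 lower, and 1 regulator higher and 3 lower, where 28.1% of all genes were called lower. The class I gene that was higher was H2-Q4, at 568.4, 408.9, 792.1 and 684.0 CPM in Dounce-Input against 81, 73.7, 134.5 and 98.8, a difference of 3.01 ± 0.22, and its reads may be shared with other H2-Q genes. The class II gene was H2-Eb2, a relative of H2-Eb1, which had 54, 24, 27 and 14 counts in Dounce-Input and 12, 3, 2 and 7 in Cell-Input (-) Inhib.

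The regulator was Ciita, the transactivator that switches on class II genes. It measured 7.43, 6.80, 6.56 and 8.68 CPM in Dounce-Input, 1.62, 3.31, 0.926 and 2.63 in Cell-Input (-) Inhib and 0.655, 0.561, 1.57 and 0.526 in Tissue2-Input. All 4 Dounce-Input libraries lay above the others, by 2.12 ± 0.42 over Cell-Input (-) Inhib (edgeR adjusted p = 0.000134) and by 3.33 ± 0.47 over Tissue2-Input (edgeR adjusted p = 2.59e-06). In TRAP it was higher in Dounce than in Cell (-) Inhib by 2.02 ± 0.49 (edgeR adjusted p = 0.00191), with 7 to 61 counts per Dounce library. The class I transactivator Nlrc5 measured 3.71, 3.15, 2.19 and 1.65 CPM in Dounce-Input and 5.92, 4.61, 8.68 and 5.84 in Cell-Input (-) Inhib, and was not called there (-0.83 ± 0.48, edgeR adjusted p = 0.118). Cd83 differed between Dounce and Cell (-) Inhib by -2.68 in Input and -1.89 in TRAP, on the log2 scale, and was called lower in both.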

How the data were processed

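Brains of Cx3cr1-NuTRAP mice were sequenced as Input and TRAP libraries. The authors made stranded poly(A) libraries, aligned reads to mm10 in Strand NGS, removed duplicates and normalized with the DESeq2 method, whose release is not given in the sources used here. The deposited raw columns hold expected counts per gene, which need not be whole and were rounded here. The deposited normalized columns hold log2 values, used only for an alternative limma fit.

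Counts were fitted with edgeR 4.0.16 in R 4.3.3 (TMM, quasi-likelihood test, all libraries of an Input or TRAP set in 1 fit, or all of a table for TRAP against Input), on genes with more than 5 counts in every library of at least 1 group. Called genes had a Benjamini-Hochberg adjusted p under 0.1 and a change over 2-fold. Alternatives used DESeq2 1.42.0 and limma 3.58.1, other filters, other libraries in the fit, each replicate left out and the mouse as a block. Scripts were tested on simulated data. Levels are TMM CPM, and per-kilobase levels use merged exon lengths of mm10 annotation. Poly(A) counts have counting error set by the depths given in the report.

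The members and gene lists were chosen with earlier results of these data known. The differences between TRAP effects, the shares of all genes that do not overlap, the class ratio and the levels per microglial marker were added after the data were seen. Within each pathway list, at most the 3 called genes with the largest change were named. Nlrc5 beside Ciita was picked after its values were seen. Marker lists were given by their sums. Labels put samples of 1 mouse in several groups, so the mouse pairs them: the mean correlation of deviations within a mouse was -0.00384 to 0.301 over 14 comparisons. Mice are separate animals, and a label naming each animal gave the pairing.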

Additional observations from a re-analysis of the deposited data

Results flagged for a closer look

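A library was marked as far from its group where its gap to the nearest other library, over the range of the group, passed Dixon's limit. This happened in 8 of 162 groups (4.94%), and chance marks about 1 in 20. Replicate 1 of Cell-TRAP was marked for H2-Aa (297.2 CPM, others 71.3 to 109.7), H2-Ab1 (339.5, others 94.2 to 127.7) and Cd74 (892.7, others 245.4 to 328.2). The other marks were single: Cd74 in autoMACS-TRAP replicate 2 (555.2 CPM, others 398.3 to 423.2), H2-Ab1 in Tissue2-Input replicate 4 (3.79, others 4.94 to 5.00), H2-Eb1 in Tissue2-Input replicate 1 (6.92, others 3.70 to 4.12), Tap1 in Tyto-Input replicate 1 (104.2, others 83.2 to 88.1) and Tap2 in Cell-TRAP (+) Inhib replicate 1 (251.8, others 220.7 to 224.0).

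The TRAP effect, TRAP against Input on the log2 scale, differed between preparations in 27 of 54 tests by edgeR's interaction term. Of all genes, 35.3% were called for Cell minus Tissue (29.5% lower) and 28.9% for the sorts minus Cell (19.0% lower). For Cell (-) Inhib minus Tissue2 35.7% were called lower, and for Dounce minus Cell (-) Inhib 38.5% were called (32.2% higher). Gated sorts minus autoMACS (0.335% of all genes called) and Cell (+) minus Cell (-) Inhib (0.145%) called no member. The effect in Cell minus that in Tissue was -1.95 for H2-Aa, -1.85 for H2-Ab1, -1.51 for H2-Eb1, -2.01 for Cd74 and -1.20 for B2m. The mean effect of the sorts minus that in Cell was -2.12 for H2-Aa, -2.18 for H2-Ab1, -2.11 for H2-Eb1, -2.07 for Cd74, -1.21 for H2-K1, -1.58 for H2-D1, -2.15 for B2m and -1.54 for Tap1. The effect in Cell (-) Inhib minus that in Tissue2 was -2.79 for H2-Aa, -2.73 for H2-Ab1, -2.61 for H2-Eb1, -2.62 for Cd74 and -1.74 for B2m, where 38.6% of all genes were called and the median was -0.61. The effect in Dounce minus that in Cell (-) Inhib was 1.57 for H2-Aa, 1.90 for H2-Ab1, 1.63 for H2-Eb1, 1.52 for Cd74, 1.54 for H2-K1, 1.15 for H2-D1, 1.82 for B2m, 1.58 for Tap1 and 1.42 for Tap2.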

How the results depend on the processing

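No called value changed sign in the alternatives run. Of 3456 values under the alternatives 77 did, all for differences not called in the report, over 31 pairs of member and comparison and none larger than 0.33 on the log2 scale as reported. With the FDR alone, without the fold limit, the members called went from 0 to 2 for the gated sorts against autoMACS in Input, 4 for the sorts against Cell-TRAP, 3 for the gated sorts against autoMACS in TRAP and 7 for TRAP against Input over the sorts. In that order, 4798 of 15750, 8735 of 14953, 5390 of 14953 and 9895 of 15825 genes passed an unadjusted edgeR p of 0.05. Leaving out 1 replicate at a time gave 5 to 9 members called for TRAP against Input in Cell (+) Inhib (8 with all, 5 without replicate 2) and 5 to 9 in Cell (-) Inhib. Over all genes, 6989 to 7118 were called in the Cell (+) Inhib fits and 7150 to 7514 in the Cell (-) Inhib fits. With the mouse as a replicate block, Tap2 in Tissue (0.99) lost its call and H2-Eb1 (1.30) and Tap2 (1.34) in Cell (-) Inhib and Cd74 (1.21) in Cell (+) Inhib gained one, and no other call of a member changed in the 15 comparisons that could be blocked. Tap2 in TRAP against Input also fell under 2-fold with DESeq2 size factors or its Wald test (0.96 in Tissue, 0.94 in Cell), with at least 10 counts in every library (0.92, 0.88, and 0.99 in Tissue2) and with limma (0.91, 0.85). Over the sorts against Cell-Input, Tap2 was at 0.99 with at least 10 counts and at 0.97 with limma, and H2-K1 at 0.99 with limma. The cause was not tested. The likeness lists shared 0 (class II) and 1 (class I) of 8 genes with those of the cell preparation libraries. Scaling by library totals moved 48 of 180 group levels and 57 of 240 marker sums by more than 1 SD. Depth limits the class II genes in Tissue2-Input most, where H2-Aa had 24 to 52 counts.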
